A study of Mus musculus with 23 samples.

Results

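The plasminogen activation genes Plau, Plat, Plaur, Serpinb2 and Serpine2 were followed in ear tissue before and after a punch wound. They were chosen by symbol: each gene was read from the array row annotated to it alone, and where a gene has several such rows the row with the highest mean was to be used. Of the 5 genes, 4 had a row, 1 each, among the 19938 genes measured this way, and Serpine2 was not analysed here. Ear pinna tissue of 4-week-old female mice was hybridised to Mouse Gene 1.0 ST microarrays from Affymetrix, 23 in all, each labelled as a biological replicate. The cub mice were Rhbdf2cub/cub of strain B6.Cg-Rhbdf2cub/J, homozygous for the allele in every tissue, and the wild-type mice were Rhbdf2+/+ of strain C57BL/6J. Both genotypes were sampled unwounded (0 h) and at 15 min, 2 h and 24 h after the ear was punched to leave a 2-mm hole. Each of the 8 groups had 3 arrays, apart from cub at 15 min with 2. Wounded samples were the 1-mm rim taken around the hole with a 3-mm biopsy punch, and the labels give no biopsy size for 0 h, so the 0 h tissue may not be of the same size or place as the wound rims.

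Plau encodes urokinase and Plat encodes tissue-type plasminogen activator, the serine proteases that cut plasminogen, the product of Plg, into plasmin. Plasmin dissolves fibrin and helps cells move through a provisional matrix, and mice without plasminogen close skin wounds slowly. Plaur encodes the receptor that holds urokinase at the cell surface, and it is carried by migrating keratinocytes, neutrophils and monocytes. Serpinb2, also called plasminogen activator inhibitor type 2, and Serpine2, protease nexin-1, encode inhibitors of the activators. Serpinb2 is largely kept inside the cell and is made by keratinocytes and activated macrophages.

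All values are log2 values made by the authors with RMA (robust multi-array average), so a difference of 1 is a doubling. They ran from 2.92 to 13.84, with array medians of 6.37 to 6.46, and the number of arrays limits the precision. The basal keratins Krt5 and Krt14 and the muscle creatine kinase Ckm were at 10.89 or more on every array, and the cartilage collagen Col2a1 was between 7.06 and 7.91, so the defining genes of ear skin, muscle and cartilage were present. Rhbdf2, the mutated gene, was at 9.11 ± 0.04 in unwounded cub ears and 8.70 ± 0.06 in wild type (SD, n = 3 each, adjusted p = 0.00883), and at 8.32 ± 0.13 in cub and 8.81 ± 0.22 in wild type at 24 h (adjusted p = 0.00218). Which part of the gene its probes read was not examined. Unwounded cub replicate 2 stood apart in adipocyte markers, at a mean of 9.83 against 8.61 and 9.03 in its group. It also stood apart in platelet and red cell markers, at 8.16 against 7.29 and 7.35. Cub 2 h replicate 2 stood apart in adipocyte markers, at 8.92 against 8.06 and 8.06 in its group. Wild-type 15 min replicate 1 stood apart in wound-edge keratinocyte markers, at 9.20 against 7.99 and 8.23 in its group. That array was the highest of its group for Plat, Plaur and Serpinb2, and narrowly for Plau (8.98 against 8.97 and 8.96). Differences are given with their standard error (SE) and groups with their standard deviation (SD), and a gene was called where limma's adjusted p was under 0.05. In these bulk samples, fewer cells of a type and less RNA per cell cannot be told apart.

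By 24 h the 4 genes had all risen in both genotypes, Plaur by far the most. In cub all 4 of 4 were higher at 24 h than at 0 h, where 21.1% of all genes were called higher, 24.9% lower and 46.0% in either direction. In wild type 4 of 4 were higher as well, where 20.5% of all genes were called higher, 22.4% lower and 42.8% in either direction. The median of the 4 differences was 1.13 in cub and 0.95 in wild type, while the median over all genes was 0.00 and -0.02. At 2 h the picture was mixed: 2 of 4 were higher than at 0 h in cub (Plaur and Serpinb2; 7.66% of all genes higher, 4.28% lower, 11.9% in either direction), and in wild type 2 were higher and 1, Plau, was lower (3.98% of all genes higher, 4.00% lower, 7.97% in either direction). At 15 min limma called 0 of 4 in either genotype against 0 h, with 0 of 4 at an unadjusted p under 0.05 in cub and 1 of 4, Plat, in wild type. Of all genes, 0.0251% were called at that time in cub (0.0201% higher, 0.00502% lower) and 0.0351% in wild type (all higher). The cub share is uncertain, since that group had 2 arrays and a fit without 1 of them describes only the array left. From 2 h to 24 h, 4 of 4 were higher in cub (18.8% of all genes higher, 23.4% lower, 42.2% in either direction) and 3 of 4 in wild type (21.1% higher, 20.4% lower, 41.5% in either direction).

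**Figure D1:**
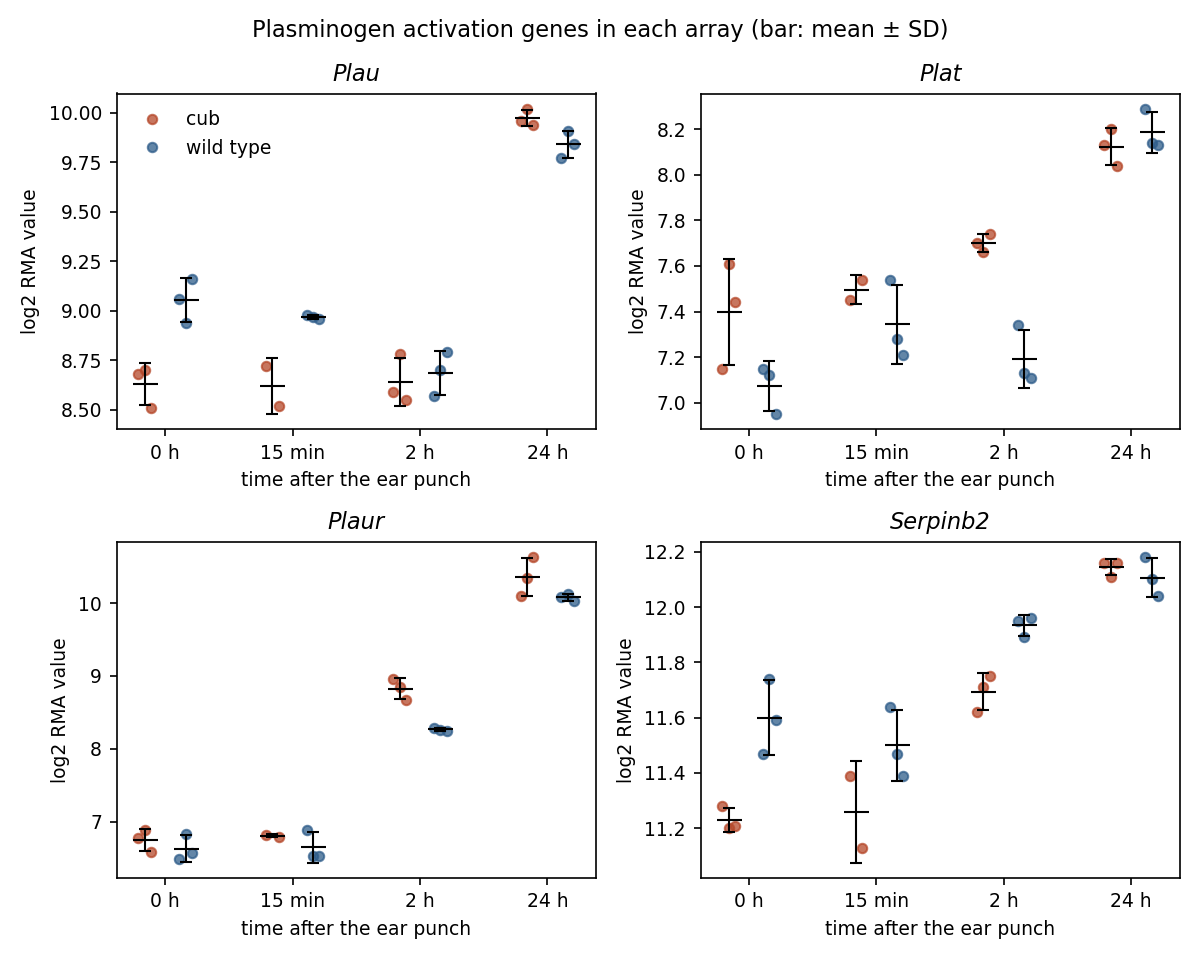
Log2 RMA value of Plau, Plat, Plaur and Serpinb2 (vertical axes, separate scales) on each array at 0 h, 15 min, 2 h and 24 h after the ear punch, with cub in red on the left and wild type in blue on the right of each time; black marks are the mean ± SD. Plaur went up between 15 min and 2 h and again by 24 h, whereas Plau stayed between 8.51 and 9.16 until 2 h and reached 9.77 to 10.02 at 24 h.

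The urokinase gene Plau was lower in cub before wounding and at 15 min, with no genotype difference called from 2 h on. In cub its arrays read 8.68, 8.70 and 8.51 at 0 h, 8.72 and 8.52 at 15 min, 8.59, 8.78 and 8.55 at 2 h, and 9.96, 10.02 and 9.94 at 24 h. In wild type they read 9.06, 8.94 and 9.16 at 0 h, 8.98, 8.97 and 8.96 at 15 min, 8.57, 8.70 and 8.79 at 2 h, and 9.77, 9.91 and 9.84 at 24 h. At 0 h and at 15 min every cub array lay below every wild-type array, at 2 h the genotypes overlapped, and at 24 h every cub array lay above the wild-type arrays by a small margin.

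Plau was lower in unwounded cub ears by -0.42 ± 0.08 (adjusted p = 0.00258), a 1.34-fold difference that was called in 33 of 33 alternative analyses. At 15 min it was lower by -0.35 ± 0.08 (adjusted p = 0.0298). That call ended without cub replicate 3 (-0.25, adjusted p = 0.336), without any of wild-type replicates 1, 2 and 3 (adjusted p = 0.0815, 0.0616 and 0.0832), with array weights (0.0805) and in a fit of only the 5 arrays compared (0.112). The differences of -0.05 ± 0.08 at 2 h (adjusted p = 0.82) and 0.13 ± 0.08 at 24 h (adjusted p = 0.379) did not pass.

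The wounding change of Plau differed between the genotypes. From 0 h to 24 h Plau rose by 1.34 ± 0.08 in cub (adjusted p = 4.22e-12, 2.54-fold) and by 0.79 ± 0.08 in wild type (adjusted p = 2.29e-08, 1.73-fold). The difference of these changes passed its own test (0.56 ± 0.11, adjusted p = 0.0135), where 1.00% of all genes were called, 0.256% with the difference above 0 and 0.747% with it below. Plau was the 1 of 4 genes called there, and 3 of 4 had an unadjusted p under 0.05. At 2 h Plau was lower than at 0 h in wild type (-0.37 ± 0.08, adjusted p = 0.00354), and its difference in cub was 0.01 ± 0.08 (adjusted p = 0.96). The test of that contrast between the genotypes did not pass (0.38 ± 0.11, adjusted p = 0.193). In it limma called 0 of 4 genes, 2 of 4 at an unadjusted p under 0.05, and 0.130% of all genes (0.105% above 0, 0.0251% below). That share is 26 genes, and leaving out 1 array gave between 1 (without cub or wild-type 0 h replicate 2) and 45 (without cub 2 h replicate 2). For the change to 15 min it called 0 of 4, 0 of them at an unadjusted p under 0.05, and 0.00% of all genes. Over the 8 groups, cub at 24 h stood highest at 9.97 ± 0.04 and wild type at 24 h next at 9.84 ± 0.07. Wild type at 0 h (9.05 ± 0.11) and 15 min (8.97 ± 0.01) overlapped each other, and the lowest 4 groups, wild type at 2 h and cub at 2 h, 0 h and 15 min, ran from 8.69 ± 0.11 to 8.62 ± 0.14 and overlapped their neighbours.

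Plat, the tissue-type activator made largely by endothelial cells, gave another pattern, with a higher level in cub at 2 h. In cub it read 7.15, 7.61 and 7.44 at 0 h, 7.45 and 7.54 at 15 min, 7.70, 7.66 and 7.74 at 2 h, and 8.13, 8.20 and 8.04 at 24 h. In wild type it read 7.15, 7.12 and 6.95 at 0 h, 7.54, 7.28 and 7.21 at 15 min, 7.34, 7.13 and 7.11 at 2 h, and 8.29, 8.14 and 8.13 at 24 h. The genotypes did not overlap at 2 h and overlapped at the other times.

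At 2 h Plat was higher in cub by 0.51 ± 0.10 (adjusted p = 0.00431, 1.42-fold), with means of 7.70 ± 0.04 in cub and 7.19 ± 0.13 in wild type (SD, n = 3 each), and this held in 33 of 33 alternatives. At 0 h the difference of 0.33 ± 0.10 did not pass (adjusted p = 0.0594). It was called without cub replicate 1, the lowest cub array (0.45, adjusted p = 0.00996), with the filter on dim genes (adjusted p = 0.0457) and without wild-type 15 min replicate 1 (adjusted p = 0.0438). Without cub replicate 2 it was 0.22 (adjusted p = 0.327). The differences were 0.15 ± 0.11 at 15 min (adjusted p = 0.42) and -0.06 ± 0.10 at 24 h (adjusted p = 0.835).

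At 24 h Plat was higher than at 0 h by 0.72 ± 0.10 in cub (adjusted p = 2.52e-06) and by 1.11 ± 0.10 in wild type (adjusted p = 7.13e-09). At 2 h its difference from 0 h was 0.30 ± 0.10 in cub (adjusted p = 0.0534; called at 0.44 with array weights, adjusted p = 0.00241, and in 4 other alternatives) and 0.12 ± 0.10 in wild type (adjusted p = 0.598). The 24 h change was not shown to differ between the genotypes (-0.39 ± 0.14, adjusted p = 0.245). From 2 h to 24 h Plat rose by 0.42 ± 0.10 in cub (adjusted p = 0.00133) and by 0.99 ± 0.10 in wild type (adjusted p = 4.45e-08), and this contrast between the genotypes also missed the threshold (-0.57 ± 0.14, adjusted p = 0.0645), where 0.682% of all genes were called (0.150% above 0, 0.532% below) and, by limma, 0 of 4 genes, 2 of 4 at an unadjusted p under 0.05. That share is 136 genes, and leaving out 1 array gave between 40 (without cub 2 h replicate 1) and 302 (without cub 24 h replicate 2). The Plat contrast passed when any of cub 0 h replicate 1, cub 0 h replicate 2, cub 24 h replicate 2 or wild-type 15 min replicate 1 was left out (adjusted p = 0.0351, 0.0395, 0.0468 and 0.0483). The 24 h groups were highest, at 8.12 ± 0.08 in cub and 8.19 ± 0.09 in wild type, and overlapped. Cub at 2 h followed at 7.70 ± 0.04, without overlap on either side, and the other groups ran from 7.50 ± 0.06 in cub at 15 min to 7.07 ± 0.11 in wild type at 0 h, each overlapping the next.

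Plaur, the urokinase receptor, changed more than the other 3 genes. In cub it read 6.78, 6.88 and 6.58 at 0 h, 6.82 and 6.79 at 15 min, 8.96, 8.85 and 8.67 at 2 h, and 10.10, 10.35 and 10.63 at 24 h. In wild type it read 6.48, 6.83 and 6.57 at 0 h, 6.89, 6.53 and 6.52 at 15 min, 8.29, 8.26 and 8.25 at 2 h, and 10.09, 10.12 and 10.03 at 24 h. The 0 h and 15 min arrays of both genotypes lay within one range, those at 2 h well above it with cub above wild type, and those at 24 h higher still with the genotypes overlapping.

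Compared with 0 h, Plaur was higher at 2 h by 2.08 ± 0.12 in cub (adjusted p = 1.21e-10, 4.23-fold) and by 1.64 ± 0.12 in wild type (adjusted p = 3.97e-09, 3.12-fold). At 24 h it was higher by 3.61 ± 0.12 in cub (adjusted p = 9.34e-16, 12.2-fold) and by 3.45 ± 0.12 in wild type (adjusted p = 3.14e-15, 11.0-fold). The range of its 8 group means, 3.73, was wider than that of 99.7% of all genes. Plaur was higher in cub at 2 h by 0.56 ± 0.12 (adjusted p = 0.00805, 1.47-fold), and this call ended without cub 2 h replicate 1 (0.49, adjusted p = 0.0689). It was 0.28 ± 0.12 higher in cub at 24 h, which did not pass (adjusted p = 0.195), and the differences at 0 h and 15 min were 0.12 ± 0.12 (adjusted p = 0.693) and 0.16 ± 0.13 (adjusted p = 0.485). The change from 0 h to 2 h was not shown to differ between the genotypes (0.44 ± 0.17, adjusted p = 0.348), nor was that from 0 h to 24 h (0.16 ± 0.17, adjusted p = 0.833).

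Serpinb2, the inhibitor, was lower in unwounded cub ears and rose in both genotypes after wounding. In cub it read 11.28, 11.20 and 11.21 at 0 h, 11.39 and 11.13 at 15 min, 11.62, 11.71 and 11.75 at 2 h, and 12.16, 12.11 and 12.16 at 24 h. In wild type it read 11.47, 11.74 and 11.59 at 0 h, 11.64, 11.47 and 11.39 at 15 min, 11.95, 11.89 and 11.96 at 2 h, and 12.18, 12.10 and 12.04 at 24 h. The cub arrays lay below all wild-type arrays at 0 h and 2 h, reached the lowest of them at 15 min and overlapped them at 24 h.

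Serpinb2 was lower in cub by -0.37 ± 0.08 at 0 h (adjusted p = 0.0063, 1.29-fold), with means of 11.23 ± 0.04 in cub and 11.60 ± 0.14 in wild type (SD, n = 3 each). The call ended without wild-type replicate 2 (-0.30, adjusted p = 0.0529), the highest of its group. The differences of -0.24 ± 0.08 at 15 min (adjusted p = 0.104) and at 2 h (adjusted p = 0.077) did not pass, though the 2 h one did after quantile normalization (-0.29, adjusted p = 0.0223), with trend and robust moderation (adjusted p = 0.0416) and without cub 15 min replicate 2 or 3 (adjusted p = 0.0496 each). The 15 min one passed without cub replicate 2 (-0.37, adjusted p = 0.0236). At 24 h it was 0.04 ± 0.08 (adjusted p = 0.884).

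After wounding Serpinb2 rose at 2 h by 0.46 ± 0.08 in cub (adjusted p = 0.00022) and by 0.33 ± 0.08 in wild type (adjusted p = 0.00708, not called without wild-type 0 h replicate 1 at 0.0501). By 24 h it was up by 0.91 ± 0.08 in cub (adjusted p = 1.39e-09, 1.88-fold) and by 0.51 ± 0.08 in wild type (adjusted p = 8.63e-06, 1.42-fold). The difference between these 24 h rises was 0.41 ± 0.11 and missed the threshold (adjusted p = 0.0707). It passed after quantile normalization (0.42, adjusted p = 0.0368), with trend and robust moderation (adjusted p = 0.0338), without cub 15 min replicate 2 or 3 (adjusted p = 0.0465 each) and without wild-type 0 h replicate 1 (0.47, adjusted p = 0.0372). From 2 h to 24 h it rose by 0.45 ± 0.08 in cub (adjusted p = 3.66e-05), and the difference in wild type was 0.17 ± 0.08 (adjusted p = 0.0721). The wild-type difference passed with only the groups compared (adjusted p = 0.0461) and with trend and robust moderation (adjusted p = 0.0428). Every wild-type array at 24 h lay above those at 2 h.

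Plaur and Serpinb2 were the genes that were higher at 2 h and at 24 h than at 0 h in both genotypes, and their upstream sequences are shown for that reason. RefSeq promoter windows of assembly GRCm38.p6 were at hand for 3 of the 5 genes, Plaur, Serpinb2 and Serpine2. The 250 bases before the start are given 5′ to 3′ on the plus strand for Plaur (chr7:24462233-24462482) and for the upstream start of Serpinb2 (chr1:107511173-107511422). Capitals mark matches to the AP-1 site TGANTCA and to the TATA box TATAAA.
Plaur: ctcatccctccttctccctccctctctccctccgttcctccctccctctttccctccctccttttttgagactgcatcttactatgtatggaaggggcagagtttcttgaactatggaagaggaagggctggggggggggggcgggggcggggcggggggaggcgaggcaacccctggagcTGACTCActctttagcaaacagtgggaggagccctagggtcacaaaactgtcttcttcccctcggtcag
Serpinb2: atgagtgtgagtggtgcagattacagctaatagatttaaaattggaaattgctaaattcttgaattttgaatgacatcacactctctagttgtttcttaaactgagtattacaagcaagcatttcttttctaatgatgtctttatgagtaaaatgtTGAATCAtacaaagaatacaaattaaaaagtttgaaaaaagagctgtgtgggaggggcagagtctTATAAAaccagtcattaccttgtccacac

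Both windows shown held a match to the AP-1 site, which binds the Fos and Jun factors. In Plaur it lay 69 to 63 bases before the start and read TGACTCA, and in Serpinb2 it lay 94 to 88 bases before the start and read TGAATCA. Searched on both strands, 6.75% of the 32851 promoter windows in the table held such a match in these 250 bases. A TATA box was found in Serpinb2 at 29 to 24 bases before the start (12.4% of windows) and not in the Plaur window. The Plaur window held 3 overlapping or adjoining GC boxes, GGGCGG (32.7% of windows with at least 1), and the Serpinb2 window held none. Neither window held the antioxidant response element core TGACNNNGC, the binding motif of NRF2, which 10.2% of windows held. Counted from the downstream start of Serpinb2, the same AP-1 match lay at 181 to 175 and the same TATA box at 116 to 111 bases. The Serpine2 window held 6 GC boxes and no AP-1 match. These matches describe letters and were not tested for binding.

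Between the genotypes, the activators, the receptor and the inhibitor did not move one way. At 0 h 2 of the 4 genes, Plau and Serpinb2, were lower in cub and 0 were higher, where 1.93% of all genes were called lower, 3.33% higher and 5.25% in either direction. At 15 min 1 of 4, Plau, was lower (1.88% of all genes lower, 1.57% higher, 3.45% in either direction). At 2 h 2 of 4, Plaur and Plat, were higher and 0 lower (3.84% of all genes higher, 0.577% lower, 4.41% in either direction). At 24 h limma called 0 of 4, where 5.68% of all genes were called (2.24% higher, 3.44% lower), and 1 of 4, Plaur, had an unadjusted p under 0.05. Over all genes, the cub arrays lay wholly above the wild-type arrays for 11.3% at 0 h, 22.4% at 15 min, 13.6% at 2 h and 8.41% at 24 h, and wholly below for 11.5%, 15.6%, 7.28% and 9.91%. The number of all genes called also rested on few arrays. At 0 h it was 322 without cub replicate 2, 392 without wild-type replicate 2 and 576 without wild-type replicate 3, against 1047 with all arrays. At 15 min it was 2025 without cub replicate 2, 29 without cub replicate 3 and 235, 324 and 154 without wild-type replicates 1, 2 and 3, against 688. At 2 h it was 329 without cub replicate 1, 514 without wild-type replicate 2 and 402 without wild-type replicate 3, against 880, and at 24 h 443 without cub replicate 3, against 1133. The 4 genes' own calls without these arrays are those given with each gene.

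Averaged over the 4 times, 2 of the 4 genes were higher and 2 lower, where 9.71% of all genes were called higher, 8.56% lower and 18.3% in either direction. The cub level was above that of wild type by 0.28 ± 0.06 for Plaur (adjusted p = 0.00287) and by 0.23 ± 0.05 for Plat (adjusted p = 0.00324), and it was lower by -0.17 ± 0.04 for Plau (adjusted p = 0.00397) and by -0.20 ± 0.04 for Serpinb2 (adjusted p = 0.000936). Without the 15 min arrays the Plau difference was -0.11 ± 0.04 and no longer called (adjusted p = 0.109).

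**Figure D2:**
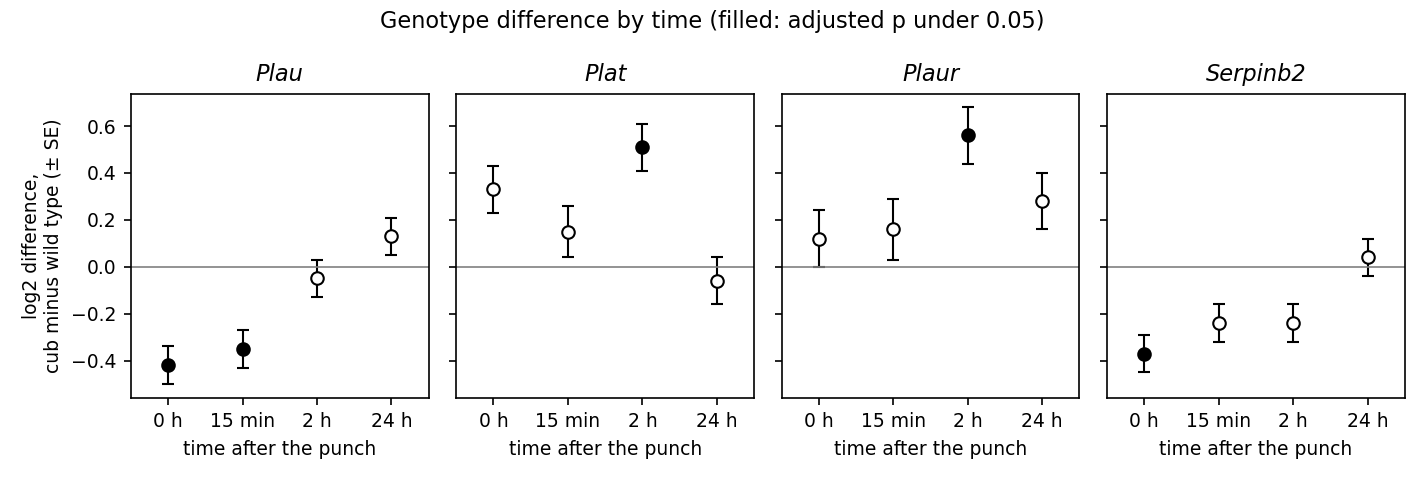
Log2 difference, cub minus wild type, of Plau, Plat, Plaur and Serpinb2 (vertical axis, shared scale) at 0 h, 15 min, 2 h and 24 h after the punch; points are the limma estimates, bars are ± SE and filled points had an adjusted p under 0.05. Plau and Serpinb2 lay below 0 at 0 h (-0.42 and -0.37) and near it at 24 h (0.13 and 0.04), and Plat and Plaur were highest at 2 h (0.51 and 0.56).

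Marker genes of several cell types were higher in cub at 2 h, as Plaur and Plat were, but those of others were not. The median difference at 2 h was -0.50 for adipocyte, -0.04 for skeletal muscle and 0.01 for cartilage markers, with 0 called higher in each list. Wound-edge keratinocyte markers averaged 8.84 to 8.95 in cub and 8.59 to 8.83 in wild type, with 1 of 9 called higher. Epidermal keratinocyte markers averaged 11.88 to 11.94 and 11.77 to 11.84, with 2 of 10 called higher. Platelet and red cell markers averaged 7.60 to 7.74 and 7.06 to 7.38, with 0 of 5 called (3.84% of all genes were called higher). The neutrophil markers, of which 13 of 14 were measured, averaged 7.19 to 7.40 on the cub arrays at 2 h and 6.66 to 7.07 on the wild-type arrays, and 6 of the 13 were called higher in cub, where 3.84% of all genes were. At 24 h they averaged 9.44 to 9.82 in cub and 9.14 to 9.33 in wild type, against 6.03 to 6.16 and 6.04 to 6.18 at 0 h. The 12 monocyte and macrophage markers measured, of 14 listed, averaged 8.28 to 8.47 in cub and 7.58 to 8.13 in wild type at 2 h, with 6 of 12 called higher. The 8 mast cell markers averaged 8.05 to 8.13 in cub and 7.20 to 7.73 in wild type at 2 h, with 6 of 8 called higher and a median difference of 0.59. Wild-type 2 h replicate 3 was the lowest of its group for neutrophil (6.66), monocyte and macrophage (7.58), mast cell (7.20) and fibroblast markers (10.38). The marker calls without that array are not given here. The part of these cells in the 2 h differences of Plaur and Plat was not tested.

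For Plat, the 10 endothelial markers averaged 8.50 to 8.59 in cub and 8.20 to 8.27 in wild type at 2 h. Of these, 7 of 10 were called higher in cub, where 3.84% of all genes were. At 0 h they averaged 8.46 to 8.70 in cub and 8.13 to 8.26 in wild type, with 6 of 10 called higher, where 3.33% of all genes were. The 10 fibroblast markers averaged 10.85 to 11.02 in cub and 10.38 to 10.59 in wild type at 2 h, with 8 of 10 called higher (3.84% of all genes). At 24 h, with Plat at its highest, the endothelial markers averaged 8.34 to 8.37 in cub and 8.12 to 8.27 in wild type. The part of these cells in the Plat difference was not tested.

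Where Serpinb2 and Plau were lower in unwounded cub ears, the epidermal keratinocyte markers, 10 of 11 measured, averaged 11.93 to 12.01 in cub and 11.75 to 11.80 in wild type. Of these, 2 of 10 were called higher and 0 lower (3.33% and 1.93% of all genes). Other lists also lay apart at 0 h without overlap. Skeletal muscle markers averaged 11.06 to 11.13 in cub and 10.74 to 10.92 in wild type, and fibroblast markers 10.66 to 10.74 in cub and 10.49 to 10.60 in wild type. Mast cell markers averaged 7.64 to 8.04 in cub and 7.47 to 7.53 in wild type. Platelet and red cell markers averaged 7.29 to 8.16 in cub and 7.09 to 7.28 in wild type. The part of all these lists in the 0 h differences was not tested. At 24 h the epidermal keratinocyte markers averaged 11.61 to 11.68 in cub and 11.59 to 11.68 in wild type. The 9 wound-edge keratinocyte markers measured, of 10 listed, averaged 11.41 to 11.52 in cub and 11.27 to 11.34 in wild type at 24 h, against 7.94 to 8.46 and 7.98 to 8.70 at 0 h, and 9 of 9 were called higher than at 0 h in cub and 8 of 9 in wild type (21.1% and 20.5% of all genes), as the 4 genes were. Skeletal muscle markers were lower at 24 h than at 0 h, 10 of 10 in cub and 9 of 10 in wild type, as were adipocyte markers, 7 of 7 and 6 of 7, and cartilage markers, 5 of 8 and 6 of 8, where 24.9% and 22.4% of all genes were called lower. The part of these tissues and cells in the 24 h changes was not tested. Without unwounded cub replicate 2, Plau and Serpinb2 were still lower in cub at 0 h (-0.46, adjusted p = 0.00785, and -0.36, adjusted p = 0.0397).

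**Figure D3:**
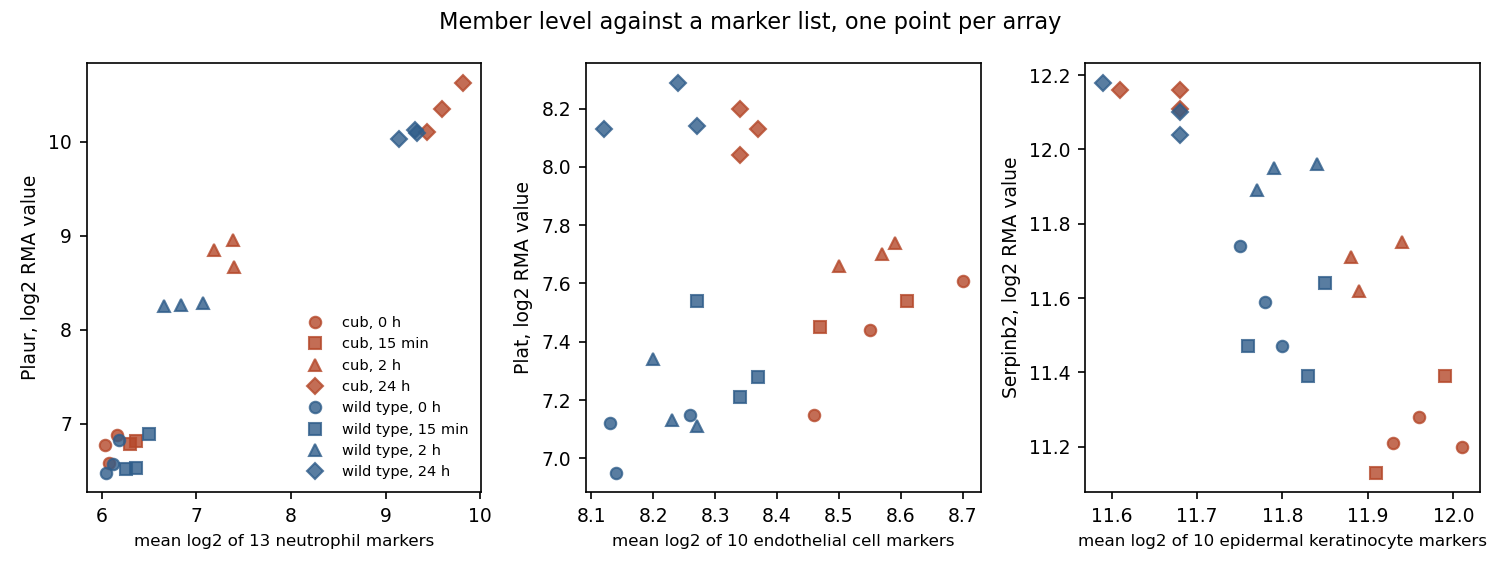
Log2 RMA value of Plaur, Plat and Serpinb2 (vertical axes) against the mean log2 value of 13 neutrophil, 10 endothelial cell and 10 epidermal keratinocyte markers (horizontal axes) on each of the 23 arrays, with cub in red, wild type in blue and a symbol for each time. Plaur and the neutrophil markers were low together at 0 h and 15 min and highest together at 24 h, while the 24 h arrays had the highest Plat at endothelial levels of 8.12 to 8.37.

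Over the 23 arrays, Plaur and Serpinb2 had the highest Pearson correlation among the 4 genes (r = 0.871) and Plat and Serpinb2 the lowest (r = 0.587). These arrays share the 4 time points, and once each group mean was subtracted the pairs ran from -0.354 for Plau and Plat to 0.403 for Plaur and Serpinb2. By the same measure the 5 genes most like Plaur were Tubb6 (r = 0.994), Hdc, Il1b, Osmr and Plek (r = 0.988), which encode a tubulin, the histamine-forming enzyme (also in the mast cell list), interleukin 1 beta, the oncostatin M receptor and the leukocyte protein pleckstrin. Those most like Serpinb2 were Aqp3 (r = 0.969), Duox1, Ddx3x, Srxn1 and Ptgs2 (r = 0.936). Aqp3 encodes the water and glycerol channel of keratinocytes and Ptgs2 the inducible cyclooxygenase, and after group means were subtracted r was 0.694 for Aqp3, 0.763 for Ptgs2, and 0.389 (Srxn1) to 0.528 (Duox1) for the other 3. Plat was most like Serpinb1a (r = 0.953), Lgals9, Vcan, Lgmn and Emilin2 (r = 0.94), and Plau was most like Psmd13 (r = 0.968), Ebna1bp2, Tbrg1, Iars and Nat8l (r = 0.962). After subtraction of group means these ran from 0.433 (Osmr) to 0.646 (Il1b) for Plaur, from 0.233 (Lgals9) to 0.587 (Serpinb1a) for Plat, and from -0.027 (Tbrg1) to 0.45 (Nat8l) for Plau.

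Of 36 other genes of the plasminogen and fibrin systems, 30 were measured. At 24 h against 0 h, 8 were higher and 9 lower in cub (21.1% and 24.9% of all genes) and 8 higher and 7 lower in wild type (20.5% and 22.4% of all genes), with medians over the 30 of -0.03 in cub and -0.01 in wild type. Of the 10 fibrin and clotting genes, 5 were higher and 2 lower in each genotype. Among these, the calls of Fga ended with the mean of its rows (adjusted p = 0.154 in cub and 0.192 in wild type), and in wild type Fgg was lost in 17 of 32 alternatives and F3 in 5 of 33. F2r was lost in 4 of 33 alternatives in cub and in 5 of 33 in wild type. Of the 8 partners and clearance receptors of the urokinase receptor, 1 was higher and 5 lower in cub and 1 higher and 4 lower in wild type. The largest rise was that of Itgam, the integrin chain that pairs with the urokinase receptor on neutrophils and monocytes, by 2.48 ± 0.14 in cub (adjusted p = 3.67e-12) and 2.66 ± 0.14 in wild type (adjusted p = 2.07e-12). Thbd, thrombomodulin, which turns thrombin to an anticoagulant role, rose by 1.48 ± 0.10 in cub (adjusted p = 1.07e-10) and 1.44 ± 0.10 in wild type (adjusted p = 2.5e-10). Thbd was also up at 2 h, by 0.70 ± 0.10 in cub (adjusted p = 6.59e-05) and 0.57 ± 0.10 in wild type (adjusted p = 0.00106). Vldlr, a clearance receptor for complexes of urokinase with its inhibitors, fell by 0.92 ± 0.08 on the log2 scale in cub (-0.92, adjusted p = 1.16e-09) and by 1.23 in wild type (-1.23, adjusted p = 2.28e-11).

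Plasminogen itself, a liver product named here after its values were seen, was near the bottom of the scale, with Plg group means of 4.90 to 5.08 and 0 calls in the 17 comparisons by limma, 0 of them at an unadjusted p under 0.05. The other plasmin and activator inhibitors measured were 5 of 7, and at 24 h 2 were lower and 0 higher in cub (24.9% of all genes lower), and 1 lower in wild type (22.4% lower). A2m, the broad protease trap alpha-2-macroglobulin, was lower at 24 h than at 0 h by -0.57 ± 0.19 in cub (adjusted p = 0.0195) and by -1.24 ± 0.19 in wild type (adjusted p = 1.75e-05). The cub call ended when any of cub 0 h replicates 1 and 3 and cub 24 h replicates 1 and 3 was left out (adjusted p of up to 0.114).

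**Figure D4:**
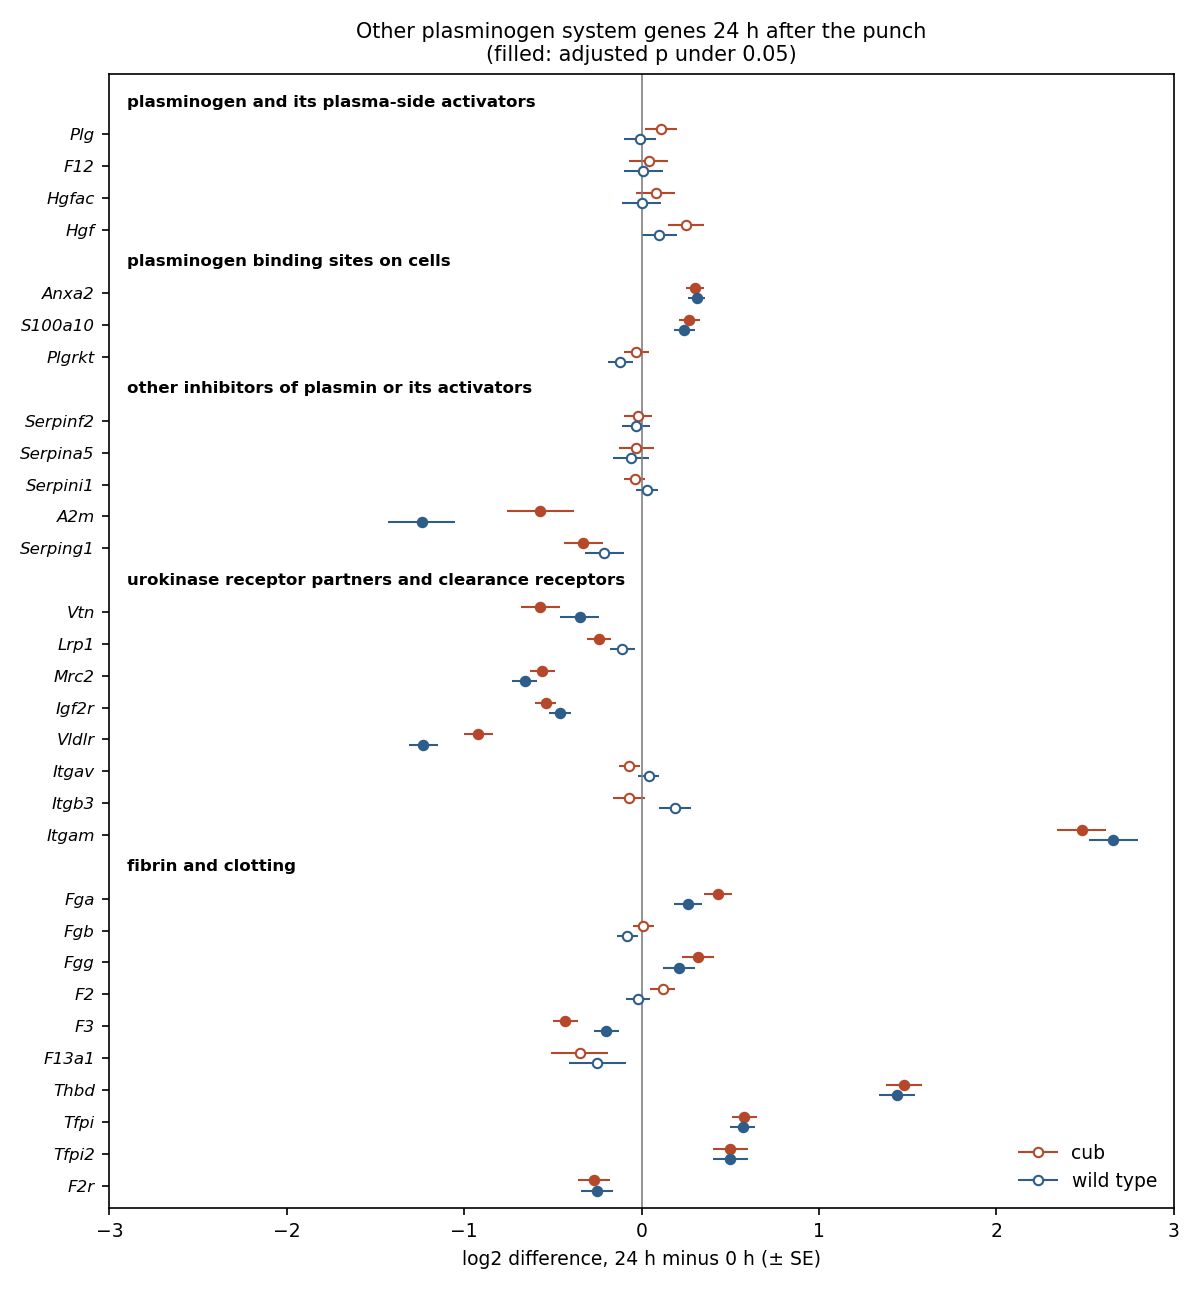
Log2 difference, 24 h minus 0 h, of the 30 other plasminogen and fibrin system genes measured (rows, grouped by role), with cub in red above wild type in blue; bars are ± SE and filled points had an adjusted p under 0.05. Itgam and Thbd stood farthest to the right (2.48 and 1.48 in cub, 2.66 and 1.44 in wild type), and farthest to the left were Vldlr in cub (-0.92) and A2m in wild type (-1.24).

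Between the genotypes, 7 of these 30 genes were higher and 3 lower in cub averaged over the 4 times, where 9.71% of all genes were called higher and 8.56% lower. At 0 h 3 were higher and 1 lower in cub (3.33% and 1.93% of all genes): A2m was lower by -0.84 ± 0.19 (adjusted p = 0.0139), and Itgam was higher by 0.52 ± 0.14 (adjusted p = 0.0301), Itgb3, an integrin chain of the vitronectin receptor, by 0.33 ± 0.09 (adjusted p = 0.0394) and Tfpi, the inhibitor of tissue factor, by 0.29 ± 0.07 (adjusted p = 0.0164). The A2m call ended without cub replicate 2 (adjusted p = 0.111) or wild-type replicate 2 or 3, and those of Itgam, Itgb3 and Tfpi ended without any of cub replicates 2 and 3 and wild-type replicates 1 and 2 (adjusted p of up to 0.207, 0.226 and 0.0797), and for Itgb3 also without wild-type replicate 3 of 0 h or of 15 min. None of these 4 calls at 0 h held when the 0 h groups were fitted alone, and those of Itgb3 and Itgam also ended with every row tested and with no moderation. At 15 min 1 was lower and 0 higher (1.88% of all genes lower), Plgrkt, which encodes a plasminogen receptor, by -0.35 ± 0.07 (adjusted p = 0.0148, not called without cub replicate 3 or wild-type replicate 1). At 2 h 4 were higher and 0 lower (3.84% of all genes higher), Itgam by 0.61 ± 0.14 (adjusted p = 0.0144), Itgb3 by 0.38 ± 0.09 (adjusted p = 0.0192), Serping1, the inhibitor of complement C1, by 0.39 ± 0.11 (adjusted p = 0.0425, lost in 18 of 33 alternatives) and Tfpi by 0.35 ± 0.07 (adjusted p = 0.00488). Without wild-type 2 h replicate 3 the calls of Itgam and Itgb3 ended (adjusted p = 0.0975 and 0.123), as did that of Itgam without cub replicate 2 (adjusted p = 0.0525) and that of Itgb3 without cub replicate 1 (adjusted p = 0.153). Tfpi was also higher at 24 h by 0.30 ± 0.07 (adjusted p = 0.0144). That call ended without cub replicate 1 or 3 or wild-type replicate 3, and when the 24 h groups were fitted alone (adjusted p = 0.109). Among the calls averaged over the 4 times, that of Mrc2 was lost in 16 of 34 alternatives and that of F13a1 in 6 of 34. The averaged call of Plgrkt ended without the 15 min arrays (limma, adjusted p = 0.187).

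The clade B serpins of the Serpinb2 gene cluster went both ways after wounding. Of 11 listed, 10 were measured, and at 24 h against 0 h 4 were higher and 5 lower in cub (21.1% and 24.9% of all genes), and 2 higher and 5 lower in wild type (20.5% and 22.4%). In cub, Serpinb5 was lost in 16 of 33 alternatives and Serpinb3c in 8 of 32, and in wild type Serpinb3c in 4 of 32 and Serpinb10 in 4 of 33. Serpinb3a, an inhibitor of cysteine proteases related to human squamous cell carcinoma antigen, was higher by 2.92 ± 0.20 in cub (adjusted p = 6.42e-11) and 2.55 ± 0.20 in wild type (adjusted p = 8.24e-10). It has close copies, so its signal may be shared with them. Serpinb7, a keratinocyte serpin, was lower by -1.62 ± 0.10 in cub (adjusted p = 2.37e-11) and -1.47 ± 0.10 in wild type (adjusted p = 1.61e-10). In unwounded cub ears Serpinb12 was lower than in wild type, as Serpinb2 was, by -0.53 ± 0.11 (adjusted p = 0.00979, and 0.0542 without cub replicate 2). Unlike Serpinb2, it was also called lower in cub at 15 min and at 24 h, calls that were lost in 4 and 7 of 33 alternatives. At 24 h Serpinb13, another serpin of stratified epithelium, was lower in cub by -0.76 ± 0.18 (adjusted p = 0.0152), and this call ended without cub replicate 3 (adjusted p of up to 0.12) or wild-type replicate 3.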

How the data were processed

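Deposited values were log2 expression values from RMA, run by the authors in Affymetrix Expression Console 1.1 according to the processing notes. Neither a summarization level nor a genome build is given in the sources used here. Of 35556 rows, 21789 carried 1 gene symbol, 1621 several and 12146 none, and symbols were updated through 21698 matched gene IDs. The highest-mean row stood for each of 19938 genes. The model, made with limma 3.58.1 under R 4.3.3, had 1 mean per group over 23 arrays with 15 residual and 5.61 prior degrees of freedom, in 17 comparisons, two-sided, with Benjamini-Hochberg adjustment over all genes. The authors' own test, R/maanova, was not run. The code was tested on simulated data. Of 158 other listed genes, 142 were measured. Other genes named were the up to 6 with the largest called difference per comparison and the 5 most correlated with each member. The members, lists and tests were chosen with earlier results of these data known. Alternatives were median-centring, quantile normalization, a filter at a highest group mean of 6, all rows, mean rows, compared groups alone, a replicate block, no, or trend and robust, moderation, array weights, and leaving out each array.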

Additional observations from a re-analysis of the deposited data

Results flagged for a closer look

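The 24 h wounding change of Plau differed between the genotypes by its own test. The rise from 0 h to 24 h was 1.34 in cub and 0.79 in wild type on the log2 scale, a difference of 0.56 ± 0.11 (limma, adjusted p = 0.0135, 3 arrays in each of the 4 groups). The 0 h arrays of the genotypes did not overlap (8.51 to 8.70 in cub, 8.94 to 9.16 in wild type), and the 24 h arrays lay close (9.94 to 10.02 in cub, 9.77 to 9.91 in wild type).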

How the results depend on the processing

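Of 68 results (4 genes in 17 comparisons), 30 were called. Of these, 25 were called in each of the 33 alternatives (34 for the average), 5 were lost in at least 1, and 0 changed sign. The 5 were Plau at 15 min, Serpinb2 at 0 h, Plaur at 2 h, Serpinb2 in wild type at 2 h and Plau averaged without the 15 min arrays, the last an alternative chosen after seeing the data. Of the 38 results not called, 7 were called in some alternative. The number of genes called between the genotypes at 15 min was 0 of 4 when the groups were fitted alone or with array weights, against 1, and that for the difference in 24 h change was 2 after quantile normalization and with trend and robust moderation, against 1. Leaving out 1 array at a time, the number ran from 1 to 3 at 0 h, 0 to 2 at 15 min, 1 to 3 at 2 h, 1 to 2 for the difference in 24 h change and 0 to 1 for that from 2 h to 24 h; with 1 array left at cub 15 min, that array is assumed to vary like the other groups. The cause of these changes was not tested, apart from the fewer arrays. Correlations between the deviations of same-numbered replicates ran from -0.296 to 0.258. At 0 h they were all positive (0.0674 to 0.211) and those of differently numbered replicates all negative, while at 15 min the same-numbered ones were negative. With 2 or 3 arrays per group, these values cannot decide whether the numbers pair samples. With the replicate number as a block, no call of the 4 genes changed (Plau at 0 h stayed at -0.42), while Itgb3 at 0 h and Serping1 at 2 h were no longer called (adjusted p = 0.0501 and 0.0535), nor were Fgg in wild type at 24 h (0.0614) and Serpinb3c and Serpinb5 in cub at 24 h (0.055 and 0.0525), and the count over all genes moved at 15 min to 414 from 688 without it, and for the difference in 2 h change to 4 from 26 (173 with array weights). Over all genes, the groups fitted alone gave 514 calls at 0 h against 1047, 67 at 15 min against 688, 258 at 24 h against 1133 and 74 for the difference in 24 h change against 200. Array weights gave 1804 at 0 h, 218 at 15 min, 1590 at 2 h against 880, and 437 for the difference in 24 h change. Without 1 array, that last count ran between 83 (without wild-type 0 h replicate 2) and 317 (without cub 24 h replicate 2).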
